A study of Mus musculus with 25 samples.

Results

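The response of the heart to Ang/PE was described in mice labelled MCT1KO, by comparing hearts infused with Ang/PE with hearts of mice without a pump. The libraries were chosen by their titles alone: 5 hearts read MCT1KO and Ang/PE and 3 read MCT1KO and no pump, which together are 8 of the 25 hearts in the series. The remaining 17 hearts were wild-type (WT) hearts without a pump (4), with saline (6) or with Ang/PE (3), and saline hearts labelled MCT1KO (4). Total RNA of each heart was depleted of ribosomal RNA and sequenced, and reads were counted per gene. The study's subject is lactate metabolism in the enlarging heart, and its text calls Ang/PE neurohormonal agonists. The labels do not give the agonists' doses, the time of infusion, the time of day of collection, the age, the sex or the strain of the mice, nor the cells in which MCT1 was deleted. A heart without a pump carries neither the implanted device nor the agonists, so the device and the agonists cannot be told apart in this comparison.

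Angiotensin II and phenylephrine act on receptors that couple to the Gq protein, the former on the AT1 receptor and the latter on alpha-1 adrenergic receptors. In cardiac muscle cells this raises calcium and activates kinases and the phosphatase calcineurin, and the cells enlarge and return to genes used before birth, such as those of the natriuretic peptides and the slow myosin heavy chain. Cardiac fibroblasts respond with matrix proteins. MCT1, encoded by Slc16a1, is a monocarboxylate transporter that carries lactate, pyruvate and ketone bodies together with a proton across the plasma membrane.

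Slc16a1 was measured first, because it checks the genotype labels. Its level in CPM, the count over the library size scaled by TMM factors, was 206, 218 and 164 in the no pump hearts and 203, 159, 188, 208 and 170.3 in the Ang/PE hearts labelled MCT1KO. In WT hearts it was 147 to 229 CPM without a pump and 199 to 220.1 CPM with Ang/PE. The ranges of the hearts labelled MCT1KO and of the WT hearts overlapped, with no loss of reads of this gene under the knockout label, so every statement on genotype below rests on the labels. The fitted log2 fold change of Slc16a1 with Ang/PE was -0.077 (SE 0.14), with an adjusted p of 0.8801 from edgeR's quasi-likelihood test with Benjamini-Hochberg adjustment. All adjusted p-values below come from that test over 16991 genes, and a gene was called at a value below 0.05.

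The 5 Ang/PE libraries held 12.2 to 16.6 M counts and the 3 no pump libraries 18.9 to 22.6 M, so the groups did not overlap in depth. Markers of ventricular muscle summed to 41809 to 57811 CPM with Ang/PE and 45417 to 55293 CPM without a pump. Ucp1 and Lep of fat, Myh4 of skeletal muscle and Sftpc and Scgb1a1 of lung had no read in any of the 8 hearts. Other markers of these lists were seen: Alb of liver was at 12.05 and 10.98 CPM in no pump replicates 1 and 2 and at no more than 1.01 CPM in the other hearts, and the lung and liver markers summed to 0.413 to 1.71 CPM with Ang/PE and 0.528 to 13.7 CPM without a pump. Cfd of fat was at 0 to 1.02 CPM with Ang/PE and 0 to 0.114 CPM without a pump, and the fat list summed to 606 to 883 and 801 to 966 CPM. Nearly all of that sum came from Pnpla2, Cox7a1, Fabp4 and Lipe, so it is not a measure of fat tissue. Adipoq, Plin1 and Retn were at no more than 0.178, 0.267 and 0.0890 CPM in any of the 8 hearts, and Cidea at no more than 17.5 CPM. The marker sums of atrial muscle, fibroblasts, endothelium, mural cells, leukocytes, red blood cells, mesothelium and nerve overlapped between the groups. Xist, the RNA that coats the inactive X chromosome, stood at 536 to 608 CPM in Ang/PE replicates 1 to 4 and at no more than 0.295 CPM in Ang/PE replicate 5 and in the 3 no pump hearts, so sex as read from Xist moved with the treatment. In bulk RNA, fewer cells of a type and less RNA per cell cannot be told apart.

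Few genes passed the test between Ang/PE and no pump in these hearts. Among those that rose were Tgm2, a protein crosslinking enzyme, Tnc, a matrix protein, and Pfkp, an enzyme of glycolysis. The opioid precursor Penk, the potassium channel Kcna2, the peptidase Lvrn and the clock genes Nr1d2 and Per3 were among those that fell. Of 16991 genes tested, 58 were called, which is 0.341%, with 27 higher (0.159%) and 31 lower (0.182%) with Ang/PE. Of these 58, 26 differed by at least 2-fold and 46 were protein coding in a GENCODE reference annotation. An unadjusted p below 0.05 was reached by 2228 genes, 13.1% of those tested, 1120 of them higher (6.59%) and 1108 lower (6.52%). The CPM of the groups did not overlap for any of the 58 called genes, against 1449 (8.53%) of all tested genes, 4.46% higher and 4.07% lower. The 58 were called by p in the same hearts, so their lack of overlap is no separate evidence. With log2 CPM of Xist as a covariate no gene was called by edgeR (smallest adjusted p = 0.0670), while all 58 kept their direction and an unadjusted p below 0.05. The count also rested on single hearts: it was 7 without no pump replicate 2, 17 without no pump replicate 1, 30 without Ang/PE replicate 4 and 38 without Ang/PE replicate 5. Among hearts without Xist, where replicate 5 alone stands for Ang/PE and is assumed to vary like the others, 86 genes were called, 8 of the 58 among them. With counts thinned to the smallest library 52 genes were called, and DESeq2 called 434, including all 58. The called genes also differed in GC content, the share of the bases G and C in the longest transcript. Its median was 52.6% in genes called higher, 45.5% in genes called lower and 49.0% in all tested genes. GC content had a Spearman correlation of 0.175 with the log2 fold change over 16528 genes. Beyond the GC and length correction of the closing section, its part in the calls was not tested.

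**Figure D1:**
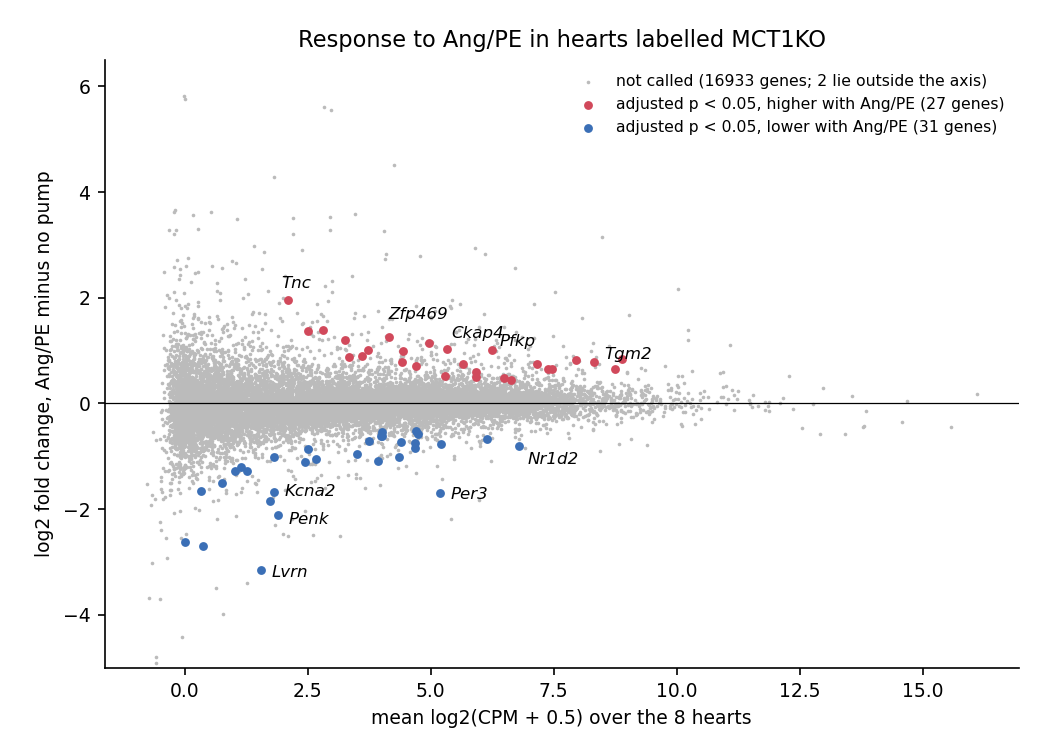
Log2 fold change with Ang/PE (vertical axis) against the mean log2(CPM + 0.5) over the 8 hearts labelled MCT1KO (horizontal axis), 1 point per gene, with called genes in colour. The 27 called genes above 0 and the 31 below it lie close to the main cloud, and many genes with larger fitted changes were not called; 2 genes lie outside the vertical axis.

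The gene of smallest p among those that rose was Zfp469, which encodes a zinc finger protein whose human counterpart is known from brittle cornea syndrome. The GENCODE reference annotation used here types Zfp469 as a lincRNA. The level of Zfp469 was 9.98, 9.32 and 10.9 CPM without a pump and 19.3, 24.8, 26.5, 20.6 and 28.7 CPM with Ang/PE. Every Ang/PE heart exceeded every no pump heart, and the log2 fold change was 1.25 (SE 0.18; edgeR adjusted p = 0.0121). Tgm2, a transglutaminase that crosslinks matrix proteins, was at 229, 210.0 and 242 CPM without a pump and 443, 369, 365, 389 and 401 CPM with Ang/PE. The Ang/PE hearts lay close together and well above the others, with a fitted log2 change of 0.79 (SE 0.12; edgeR adjusted p = 0.0121). Ckap4, a membrane protein of the endoplasmic reticulum, was at 26.2, 20.4 and 30.3 CPM without a pump and 49.4, 62.4, 43.00, 50.2 and 57.7 CPM with Ang/PE. Its groups were apart, with Ang/PE replicate 2 the highest, and the log2 fold change was 1.04 (SE 0.16; edgeR adjusted p = 0.0126). Without no pump replicate 2 the edgeR adjusted p was 0.0876 for Zfp469, 0.109 for Tgm2 and 0.109 for Ckap4, and the call of Ckap4 was also lost without no pump replicate 1.

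Several of the other risen genes of smallest p encode signalling proteins. The atypical MAP kinase Mapk4 was at 8.48, 7.89 and 8.496 CPM without a pump and 15.1, 19.8, 15.7, 15.4 and 17.04 CPM with Ang/PE (log2 fold change 1.002, SE 0.16, edgeR adjusted p = 0.0126). The ETS transcription factor Etv5, a target of fibroblast growth factor signalling, was at 14.6, 12.7 and 14.9 CPM without a pump and 24.6, 33.1, 21.3, 22.2 and 37.6 CPM with Ang/PE (log2 fold change 0.98, SE 0.17, edgeR adjusted p = 0.0177). In both genes the groups were apart, and Etv5 was highest in Ang/PE replicates 2 and 5. Abat, which breaks down the transmitter GABA, was at 14.6, 16.6 and 25.9 CPM without a pump and 33.7, 42.5, 40.9, 48.01 and 44.5 CPM with Ang/PE. No pump replicate 3 was the highest of its group and still lay below every Ang/PE heart, and the log2 fold change was 1.14 (SE 0.19; edgeR adjusted p = 0.0195). Plekho1, which binds casein kinase 2, rose by a log2 fold change of 0.74 (SE 0.12), and Arhgef37, an exchange factor family member, by 0.88 (SE 0.16). Fuca2, a secreted fucosidase, rose by 0.65 on the same scale (SE 0.12). Their edgeR adjusted p-values were 0.0126, 0.0206 and 0.0248. Each call in this paragraph was lost without no pump replicate 1 and without no pump replicate 2, where the edgeR adjusted p was largest for Fuca2 (0.243), and those of Arhgef37 and Fuca2 also without Ang/PE replicate 4.

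Of the remaining risen genes 5 are given here, named after their values were seen. Pdlim7, a scaffold of the Z-disc and of actin fibres, was at 28.3 to 33.1 CPM without a pump and 41.2 to 52.1 CPM with Ang/PE. Mical2, an enzyme that oxidises actin, was at 117 to 152 CPM and 177 to 229 CPM in the same order. Tuba8, an alpha-tubulin, was at 94.1 to 122 CPM and 142 to 203 CPM. The log2 fold changes of these genes were 0.52, 0.65 and 0.74, with edgeR adjusted p-values of 0.0319, 0.0347 and 0.0497. Scx, the tendon transcription factor scleraxis, was at 4.58, 2.92 and 3.74 CPM without a pump and 6.23, 17.2, 6.86, 8.42 and 10.2 CPM with Ang/PE, where replicate 2 was the highest (log2 fold change 1.39, SE 0.28, edgeR adjusted p = 0.04599). Ehd4, which reshapes endosome membranes, was at 313 to 368 CPM without a pump and 481 to 749 CPM with Ang/PE (log2 fold change 0.83, SE 0.16, edgeR adjusted p = 0.0282).

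Among fallen genes with a symbol other than a predicted-gene number, Kcna2, Lvrn and Penk had the smallest p. Kcna2, a voltage-gated potassium channel, was at 6.795, 5.78 and 6.16 CPM without a pump and 1.51, 2.195, 2.73, 1.83 and 1.47 CPM with Ang/PE. The groups were far apart beside their spread, and the log2 fold change was -1.68 (SE 0.21; edgeR adjusted p = 0.00582). Penk, the precursor of the enkephalins, was at 9.11, 6.35 and 8.94 CPM without a pump and 1.87, 0.9603, 1.56, 2.56 and 2.36 CPM with Ang/PE. All Ang/PE hearts were below all no pump hearts, a fitted log2 change of -2.12 (SE 0.31; edgeR adjusted p = 0.0121). Lvrn, a membrane aminopeptidase, was at 13.7, 6.81 and 8.98 CPM without a pump and 0.801, 0.137, 1.48, 0.805 and 2.12 CPM with Ang/PE. Its log2 change was the largest of the 20 genes plotted by heart, with a fitted log2 change of -3.16 (SE 0.42; edgeR adjusted p = 0.0121), and Ang/PE replicate 2 the lowest value. Kcna2, Penk and Lvrn were called without each of the 8 hearts in turn.

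The other fallen genes of smallest p differed less. Abca6 and Abcb1a encode ABC transporters, the latter the drug efflux pump P-glycoprotein. Abca6 was at 41.1, 35.9 and 32.9 CPM without a pump and 15.8, 20.7, 17.99, 25.5 and 21.7 CPM with Ang/PE (log2 fold change -0.85, SE 0.14, edgeR adjusted p = 0.0126). Abcb1a was at 33.5, 35.9 and 31.96 CPM without a pump and 21.8, 20.1, 25.8, 25.03 and 19.9 CPM with Ang/PE (log2 fold change -0.58, SE 0.0995, edgeR adjusted p = 0.0179). The groups did not overlap in either gene, and some reads of Abcb1a can be shared with its related neighbour Abcb1b. Rasgrf2, an exchange factor of Ras, had a log2 fold change of -0.73 (SE 0.12). Cecr2, a bromodomain protein of chromatin remodelling, had -0.78 (SE 0.13), Prrg1, a membrane protein with a Gla domain, -0.71 (SE 0.12), and Msh3, a mismatch repair protein, -0.54 (SE 0.095). Their edgeR adjusted p-values were 0.0177, 0.0126, 0.0179 and 0.0195. These calls were lost without no pump replicate 2, with edgeR adjusted p-values up to 0.215 for Msh3, and all but that of Cecr2 also without no pump replicate 1.

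Signalling proteins secreted by cells were also among the fallen genes of lowest level, and they are named here after their values were seen. Ccl11, the chemokine eotaxin, was at 3.04, 1.54 and 2.33 CPM without a pump and 0.623, 0.0686, 0.234, 0.585 and 0.295 CPM with Ang/PE (log2 fold change -2.7002, SE 0.42, edgeR adjusted p = 0.0121). Fgf10, a fibroblast growth factor, was at 1.64, 0.858 and 1.58 CPM without a pump and 0.267, 0.0686, 0.0779, 0.439 and 0.236 CPM with Ang/PE (log2 fold change -2.62, SE 0.45, edgeR adjusted p = 0.0179). Both had few reads in the Ang/PE hearts, and their groups did not overlap. The mechanosensitive potassium channel Kcnk2 was at 3.95 to 5.205 CPM without a pump and 1.83 to 2.73 CPM with Ang/PE (log2 fold change -1.01, SE 0.21, edgeR adjusted p = 0.0422).

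Of the other called genes, 3 are given here, also picked after their values were seen. Aox1, aldehyde oxidase, was at 79.1 to 112 CPM without a pump and 49.05 to 69.1 CPM with Ang/PE (log2 fold change -0.67, SE 0.13, edgeR adjusted p = 0.0388). It was lower in every Ang/PE heart. Pdcd4, an inhibitor of translation, was at 17.4 to 23.1 and 11.1 to 16.3 CPM (log2 fold change -0.62, SE 0.13, edgeR adjusted p = 0.0497), and Clic5, a chloride channel family member, was higher at 454 to 580.4 CPM against 292 to 369 CPM without a pump (log2 fold change 0.66, SE 0.13, edgeR adjusted p = 0.0367). A further 10 of the 58 were predicted genes or had no symbol.

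**Figure D2:**
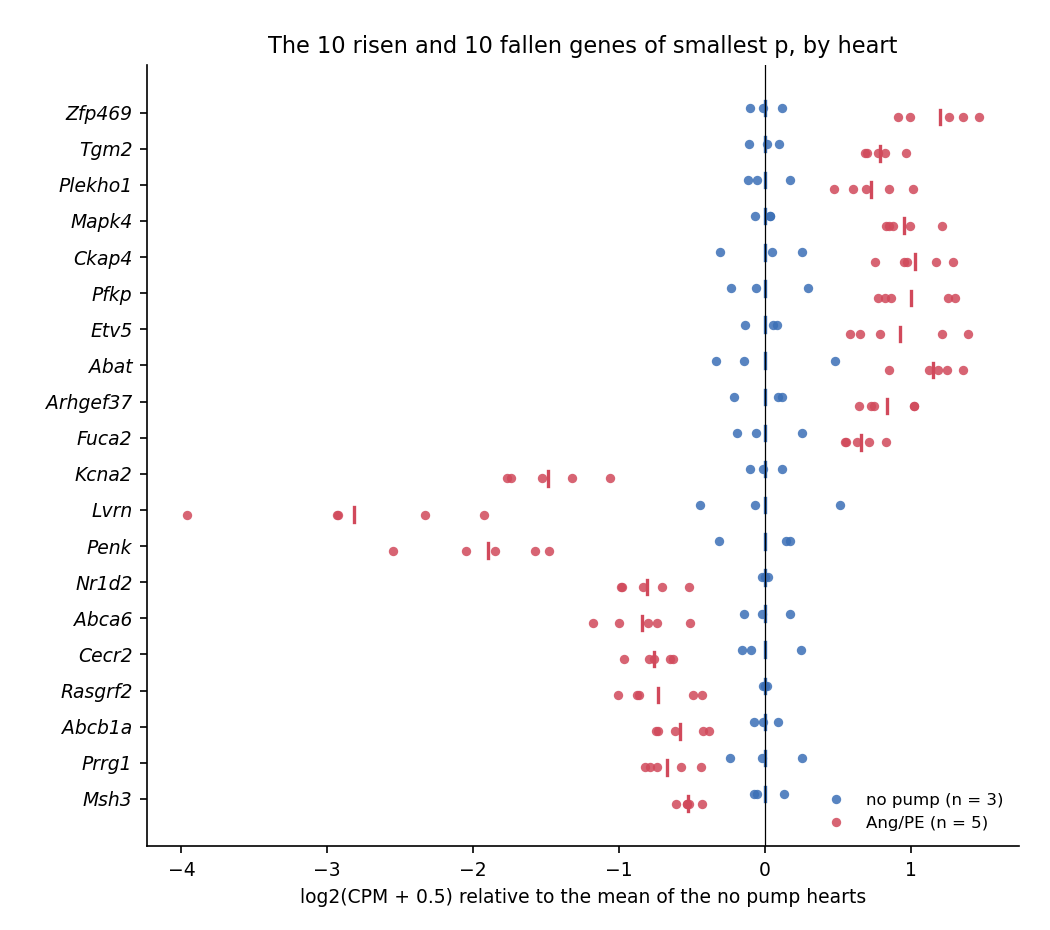
Log2(CPM + 0.5) of the 20 called genes named first, 10 risen and 10 fallen, in each of the 8 hearts labelled MCT1KO, relative to the mean of the no pump hearts; points are hearts and short lines group means. The 20 were picked among genes without overlap, so by that choice the 5 Ang/PE hearts lie to one side of the 3 no pump hearts. Lvrn has the widest spread.

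Clock genes gave 2 of the called genes. The circadian clock is a loop in which the activators Clock, Arntl (BMAL1) and Npas2 drive the Per and Cry repressors, the nuclear receptors Nr1d1 and Nr1d2 (REV-ERB) and the output factors Dbp, Tef and Hlf through E-boxes. REV-ERB proteins in turn repress Arntl through sites built on AGGTCA, and Dbp, Tef and Hlf act through D-boxes. The upstream promoter sequences of Nr1d2 and Per3, the called members, and of Ciart, another repressor, are shown because they hold the 3 kinds of letters. Each is the 250 bases before the gene's start, 5′ to 3′ in the direction of the gene, from RefSeq on GRCm38.p6, at chr14:18239107-18239356 (minus strand) for Nr1d2, chr4:151044666-151044915 (minus strand) for Per3 and chr3:95882229-95882478 (minus strand) for Ciart. Capitals mark AGGTCA in Nr1d2, the D-box TTATGTAA in Per3 and the E-box CACGTG in Ciart.
Nr1d2: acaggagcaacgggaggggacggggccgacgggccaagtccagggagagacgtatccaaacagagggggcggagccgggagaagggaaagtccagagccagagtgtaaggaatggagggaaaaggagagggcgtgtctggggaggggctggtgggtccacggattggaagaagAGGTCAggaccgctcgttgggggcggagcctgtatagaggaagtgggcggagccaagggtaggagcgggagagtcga
Per3: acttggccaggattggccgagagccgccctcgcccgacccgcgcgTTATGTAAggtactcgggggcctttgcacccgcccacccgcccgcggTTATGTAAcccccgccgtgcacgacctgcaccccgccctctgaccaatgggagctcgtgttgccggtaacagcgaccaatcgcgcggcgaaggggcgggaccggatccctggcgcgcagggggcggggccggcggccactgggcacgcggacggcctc
Ciart: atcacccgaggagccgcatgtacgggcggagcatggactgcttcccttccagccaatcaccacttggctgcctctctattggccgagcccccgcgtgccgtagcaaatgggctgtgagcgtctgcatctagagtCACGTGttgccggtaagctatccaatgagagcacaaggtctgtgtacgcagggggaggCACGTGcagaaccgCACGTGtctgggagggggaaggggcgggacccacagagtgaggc
The Per3 window holds 2 D-boxes, the Ciart window 3 E-boxes and the Nr1d2 window 1 AGGTCA, counted on both strands. RefSeq promoters were found for 16 of the 19 clock genes of the list. The E-box was in 5 of the 16, the D-box in 1 and AGGTCA in 4, against 6.86%, 0.977% and 15.8% of 27025 genes with promoters of the same length. Of the genes named above as driven through E-boxes, Per1, Cry1 and Tef had a window with CACGTG. The windows of Per3, Cry2, Nr1d1, Nr1d2, Dbp and Hlf had none, and those of Arntl had no AGGTCA. Bases after the start and further upstream were not searched, so a gene without a match here, Arntl included, can hold one there. The sequences printed were picked for holding the letters. These matches describe letters and not binding.

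Nr1d2 was at 155, 159.9 and 157 CPM without a pump and 109.8, 79.2, 87.9, 79.7 and 96.4 CPM with Ang/PE. The no pump hearts were within a few CPM of each other and above all Ang/PE hearts, and the log2 fold change was -0.799 (SE 0.12; edgeR adjusted p = 0.0121). Its call was lost without no pump replicate 2 (edgeR adjusted p = 0.0876). Per3 was at 47.3, 92.3 and 89.01 CPM without a pump and 22.7, 24.6, 27.6, 18.9 and 23.5 CPM with Ang/PE. No pump replicate 1 was the lowest of its group and still above every Ang/PE heart, and the log2 fold change was -1.6996 (SE 0.28; edgeR adjusted p = 0.0248). The call of Per3 was lost without no pump replicate 2 (edgeR adjusted p = 0.212) and also without no pump replicate 3 or Ang/PE replicate 2, 4 or 5.

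The other output factors and the activators differed in opposite directions without passing the test. Dbp was at 60.00, 150.5 and 134 CPM without a pump and 36.6, 24.8, 26.6, 11.3 and 27.4 CPM with Ang/PE (log2 fold change -2.18, SE 0.41, edgeR adjusted p = 0.0501). Arntl was at 13.98, 6.69 and 6.999 CPM without a pump and 20.6, 30.7, 26.95, 31.3 and 30.01 CPM with Ang/PE (log2 fold change 1.596, SE 0.32, edgeR adjusted p = 0.05196). The groups did not overlap in Dbp or Arntl, and no pump replicate 1 stood nearest to the Ang/PE hearts in both. The log2 fold changes were -0.85 for Tef (adjusted p = 0.0604, edgeR), -1.23 for Hlf (0.0941), -2.03 for Ciart (0.0962), -0.66 for Cry2 (0.0814) and 1.03 for Npas2 (0.0814). Of the 19 clock genes tested, 2 were called and 17 had an unadjusted p below 0.05, 12 lower and 5 higher. Over all genes tested 0.341% were called and 13.1% had such a p. The median log2 fold change of the clock genes was -0.57 against -0.0048 over all tested genes. In WT hearts the median of the clock genes was 0.14. Per3 was at 23.9 to 53.7 CPM in WT hearts without a pump and 30.4 to 60.4 CPM in WT hearts with Ang/PE, ranges that overlap. Its interaction with genotype was -1.84 (SE 0.41) on the log2 scale, with an unadjusted p of 0.000593 from edgeR and an adjusted p of 0.891. An unadjusted interaction p below 0.05 was found for 13 of the 19 clock genes, against 5.34% of all genes tested, and none passed the adjustment. The time of day of collection is not in the labels, so its part in these values was not tested.

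**Figure D3:**
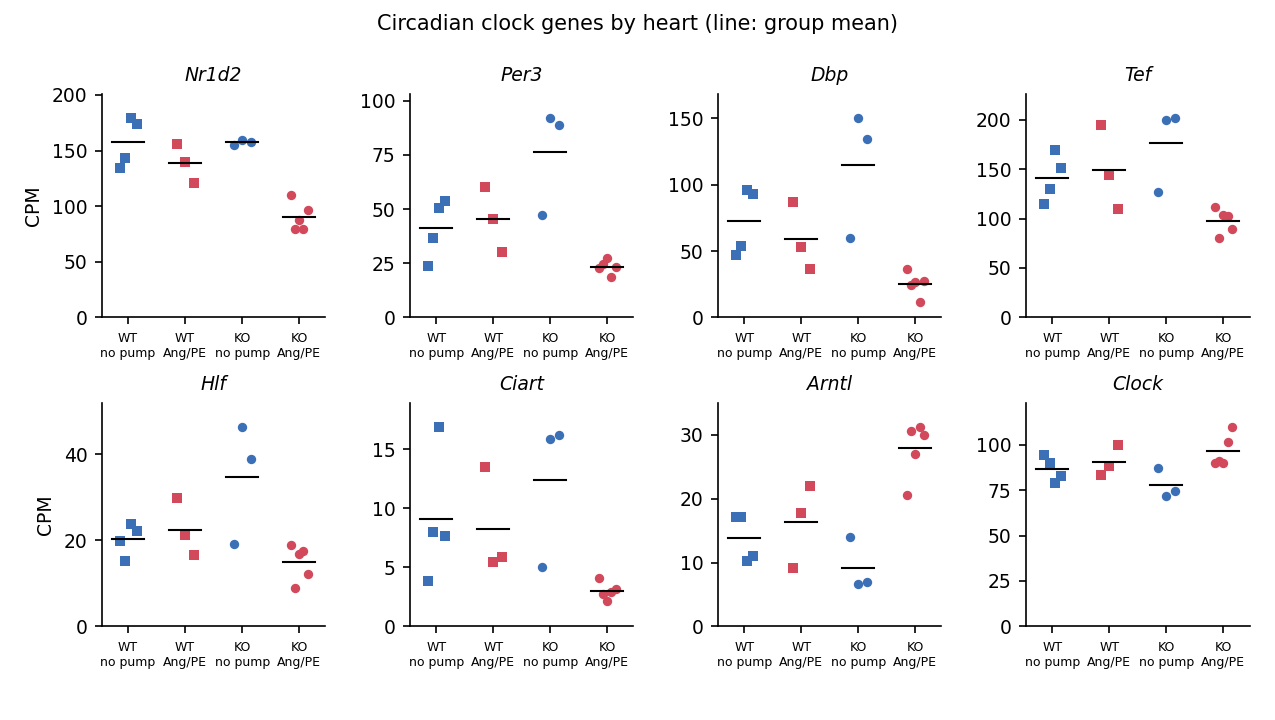
CPM of 8 clock genes in each heart of the 4 groups without saline (squares, WT; circles, labelled MCT1KO; blue, no pump; red, Ang/PE), with the group mean as a line. Among hearts labelled MCT1KO, Nr1d2, Per3, Dbp, Tef, Hlf and Ciart are lower and Arntl and Clock higher in all Ang/PE hearts, while the WT groups overlap.

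Of the 21 natriuretic and fetal muscle genes tested, 18 had a positive log2 fold change with Ang/PE, the hearts were uneven, and none was called. Of all genes tested 0.341% were called. Nppa, which encodes atrial natriuretic peptide, was at 59.8, 19.9 and 455 CPM without a pump and 349, 5053, 307, 481 and 1727 CPM with Ang/PE. Ang/PE replicates 2 and 5 were the high ones, no pump replicate 3 lay among the others, and the log2 fold change was 3.15 (SE 1.23; edgeR adjusted p = 0.307). Myh7, the slow myosin heavy chain, was at 301, 436 and 786 CPM without a pump and 913, 3797, 1404, 626 and 4583 CPM with Ang/PE. The same Ang/PE hearts, 2 and 5, were high, the groups overlapped, and the log2 fold change was 2.16 (SE 0.74; edgeR adjusted p = 0.237). Nppb, which encodes B-type natriuretic peptide, was at 245, 44.3 and 159.6 CPM without a pump and 414, 791, 275, 380.2 and 433 CPM with Ang/PE, without overlap (log2 fold change 1.61, SE 0.67, edgeR adjusted p = 0.336).

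Rcan1, a target and inhibitor of calcineurin, separated the groups without being called. It was at 66.7, 57.1 and 63.6 CPM without a pump and 369.6, 272, 158, 182 and 175 CPM with Ang/PE. The no pump hearts lay close together and far below every Ang/PE heart, of which replicates 1 and 2 were the highest, and the log2 fold change was 1.89 (SE 0.56; edgeR adjusted p = 0.182). Xirp2, a protein of the intercalated disc, was at 1126 to 1699 CPM without a pump and 2074 to 3878 CPM with Ang/PE (log2 fold change 1.099, SE 0.38, edgeR adjusted p = 0.235). Ankrd1, a stretch-responsive muscle gene, was at 596 to 1033 and 895 to 4145 CPM, with overlap (log2 fold change 1.38, SE 0.602, edgeR adjusted p = 0.351). The skeletal actin Acta1 had a fitted log2 change of 1.08 (SE 0.55; edgeR adjusted p = 0.444). Of the 21, 7 had an unadjusted p below 0.05 toward higher and 1 toward lower, against 6.59% and 6.52% of all genes tested. The median log2 fold change of the 21 was 0.29.

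The adult muscle genes gave no call, against 0.341% of all genes tested. Myh6, the fast myosin heavy chain, was at 20498, 29448 and 28043 CPM without a pump and 30018, 22176, 30806, 29830.0 and 21229.6 CPM with Ang/PE, which overlapped (log2 fold change 0.045, SE 0.19, edgeR adjusted p = 0.961). The median log2 fold change of the 18 adult sarcomere genes tested was 0.17, and the smallest adjusted p belonged to Tcap, the titin cap (edgeR, 0.0567). Tcap was at 587, 838 and 750.1 CPM without a pump and 584, 407, 474, 402 and 408 CPM with Ang/PE (-0.67 on the log2 scale, SE 0.15). Mybpc3, cardiac myosin binding protein C, was at 3668 to 4488 and 5046 to 6556 CPM, a fitted log2 change of 0.52 (SE 0.14; edgeR adjusted p = 0.114). Of 14 calcium handling genes none was called, and their median was -0.031. The sarcoplasmic reticulum pump Atp2a2 was at 14269 to 17632 CPM without a pump and 10839.8 to 17061 CPM with Ang/PE (log2 fold change -0.14, SE 0.18, edgeR adjusted p = 0.825).

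Ion channels of the heart gave no call among 17, against 0.341% of all genes tested, with a median log2 fold change of 0.016. The called Kcna2 and Kcnk2 were not on that list. Hcn2, a pacemaker channel, was at 15.04, 18.9 and 25.7 CPM without a pump and 42.4, 45.8, 49.8, 56.6 and 29.3 CPM with Ang/PE. All Ang/PE hearts were above the no pump hearts, and the log2 fold change was 1.17 (SE 0.25; edgeR adjusted p = 0.0701). Kcnj2, Kcnd2 and Kcnv2, potassium channel subunits, had log2 fold changes of -0.85, -0.68 and -1.07, with edgeR adjusted p-values of 0.161, 0.168 and 0.293.

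**Figure D4:**
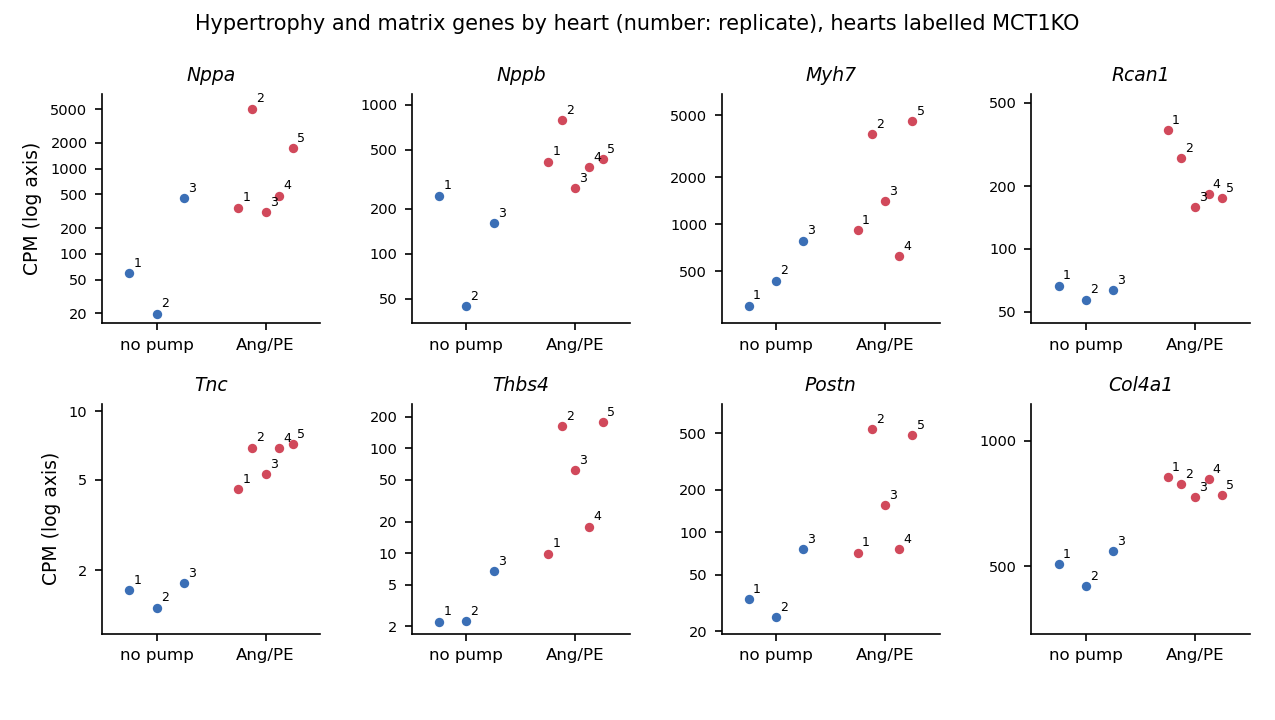
CPM on log axes of 8 hypertrophy and matrix genes in each heart labelled MCT1KO, with the replicate number beside each point. Ang/PE replicates 2 and 5 are the highest in Nppa, Myh7, Thbs4 and Postn. The groups do not overlap in Nppb, Rcan1, Tnc, Thbs4 and Col4a1, and they overlap in Nppa, Myh7 and Postn.

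Matricellular genes had the largest median of the 28 pathway lists, again with hearts that differed. Of 26 matricellular and activated fibroblast genes, 1 was called, Tnc, against 0.341% of all genes tested. Of the 26, 18 had an unadjusted p below 0.05 toward higher and 1 toward lower, against 6.59% and 6.52% of all genes. The median log2 fold change of the 26 was 1.61, against 0.57 in WT hearts. Tnc, which encodes the matrix protein tenascin C made in injured tissue, was at 1.64, 1.37 and 1.76 CPM without a pump and 4.54, 6.93, 5.297, 6.88 and 7.19 CPM with Ang/PE. The groups were well apart, with a fitted log2 change of 1.95 (SE 0.36; edgeR adjusted p = 0.02803). The call was lost without any 1 of the no pump hearts or of Ang/PE replicates 2, 4 and 5 (edgeR adjusted p up to 0.221). Thbs4, thrombospondin 4, was at 2.22, 2.23 and 6.69 CPM without a pump and 9.88, 164, 61.8, 17.9 and 177 CPM with Ang/PE. The Ang/PE hearts differed widely among themselves but all exceeded the no pump hearts, and the log2 fold change was 4.51 (SE 1.08; edgeR adjusted p = 0.103). Postn, the fibroblast protein periostin, was at 33.9, 25.1 and 76.2 CPM without a pump and 72.03, 539, 156, 76.3 and 483 CPM with Ang/PE. Ang/PE replicates 1 and 4 were level with no pump replicate 3, and the log2 fold change was 2.56 (SE 0.78; edgeR adjusted p = 0.192).

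The level of the matricellular list differed between hearts of a group. The median over its 26 genes of log2 CPM, relative to the no pump mean, was 0.54, 2.16, 0.79, 0.79 and 1.82 in Ang/PE replicates 1 to 5 and -0.031, -0.35 and 0.39 in the no pump hearts. The median over the 19 collagens was 0.059, 1.46, 0.62, 0.46 and 1.08 in the Ang/PE hearts and -0.061, -0.38 and 0.36 in the no pump hearts. Replicates 2 and 5 stood highest in both lists, and no pump replicate 3 highest in its group. The summed fibroblast markers were also highest in Ang/PE replicates 2 (3365 CPM) and 5 (2771 CPM) and in no pump replicate 3 (3280 CPM), with 1699 to 2255 CPM in the other 5 hearts. Most of this sum came from Gsn and Dcn, and its members Col1a1 and Mfap5 are also in the collagen and matricellular lists. The members differed. Dcn was highest in the same hearts as the sum. Pdgfra was at 83.1 CPM in Ang/PE replicate 2 and 105 CPM in replicate 1. Dpep1 was lowest of all in Ang/PE replicate 2 (22.6 CPM). The part of fibroblast number in the matrix values was not tested.

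All 19 collagens had a positive log2 fold change, 12 with an unadjusted p below 0.05, and none was called. Over all genes tested 6.59% had such a p toward higher and 0.341% were called. Col4a1 and Col4a2 are chains of the basement membrane. Col4a1 was at 507, 448 and 543 CPM without a pump and 819, 789, 732, 809 and 743 CPM with Ang/PE, and Col4a2 at 368 to 425 and 549.7 to 633 CPM. Their groups did not overlap, with log2 fold changes of 0.64 (SE 0.14; edgeR adjusted p = 0.0648) and 0.59 (SE 0.14; edgeR adjusted p = 0.0702). The fibrillar chains Col1a1 and Col3a1 overlapped between groups, with log2 fold changes of 0.89 (SE 0.32; edgeR adjusted p = 0.2498) and 0.87 (SE 0.38; edgeR adjusted p = 0.344).

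Matrix crosslinking and turnover gave 3 called genes of 24, against 0.341% of all genes tested, with Tgm2 and P4ha1 higher and Mmp9 lower. P4ha1, the catalytic chain of collagen prolyl hydroxylase, was at 46.5, 40.04 and 53.4 CPM without a pump and 73.9, 78.2, 59.5, 61.3 and 78.9 CPM with Ang/PE. The groups were apart, with a fitted log2 change of 0.59 (SE 0.11; edgeR adjusted p = 0.0301). Mmp9, a gelatinase made largely by leukocytes, was at 3.08, 2.97 and 3.79 CPM without a pump and 1.25, 1.303, 1.64, 1.17 and 1.36 CPM with Ang/PE. All 5 Ang/PE hearts were below the no pump hearts, a fitted log2 change of -1.29 (SE 0.24; edgeR adjusted p = 0.0264). The call of Mmp9 was lost without any 1 of the no pump hearts or of Ang/PE replicates 2, 4 and 5 (edgeR adjusted p up to 0.118), and that of P4ha1 without no pump replicate 1 or 2 or Ang/PE replicate 2 or 5 (up to 0.259). Summed leukocyte markers were 423 to 695 CPM with Ang/PE and 405 to 569 CPM without a pump, and their part in Mmp9 was not tested. Fbn2, a fibrillin of microfibrils, was called outside the lists, at 2.46, 2.002 and 4.27 CPM without a pump and 4.54, 8.99, 6.47, 9.07 and 8.902 CPM with Ang/PE (log2 fold change 1.38, SE 0.28, edgeR adjusted p = 0.0388). Of 23 TGF-beta pathway genes none was called, and their median was 0.26, against 0.55 for the crosslinking and turnover list. Among them Smad2 was at 34.2 to 40.1 CPM without a pump and 27.7 to 30.1 CPM with Ang/PE (log2 fold change -0.35, SE 0.078, edgeR adjusted p = 0.0604). Gdf15, a stress cytokine, had 1.07, 15.7, 2.41, 2.71 and 11.2 CPM with Ang/PE and 0.629 to 1.11 CPM without a pump, with replicates 2 and 5 the high hearts (log2 fold change 2.87, SE 0.82, edgeR adjusted p = 0.157).

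**Figure D5:**
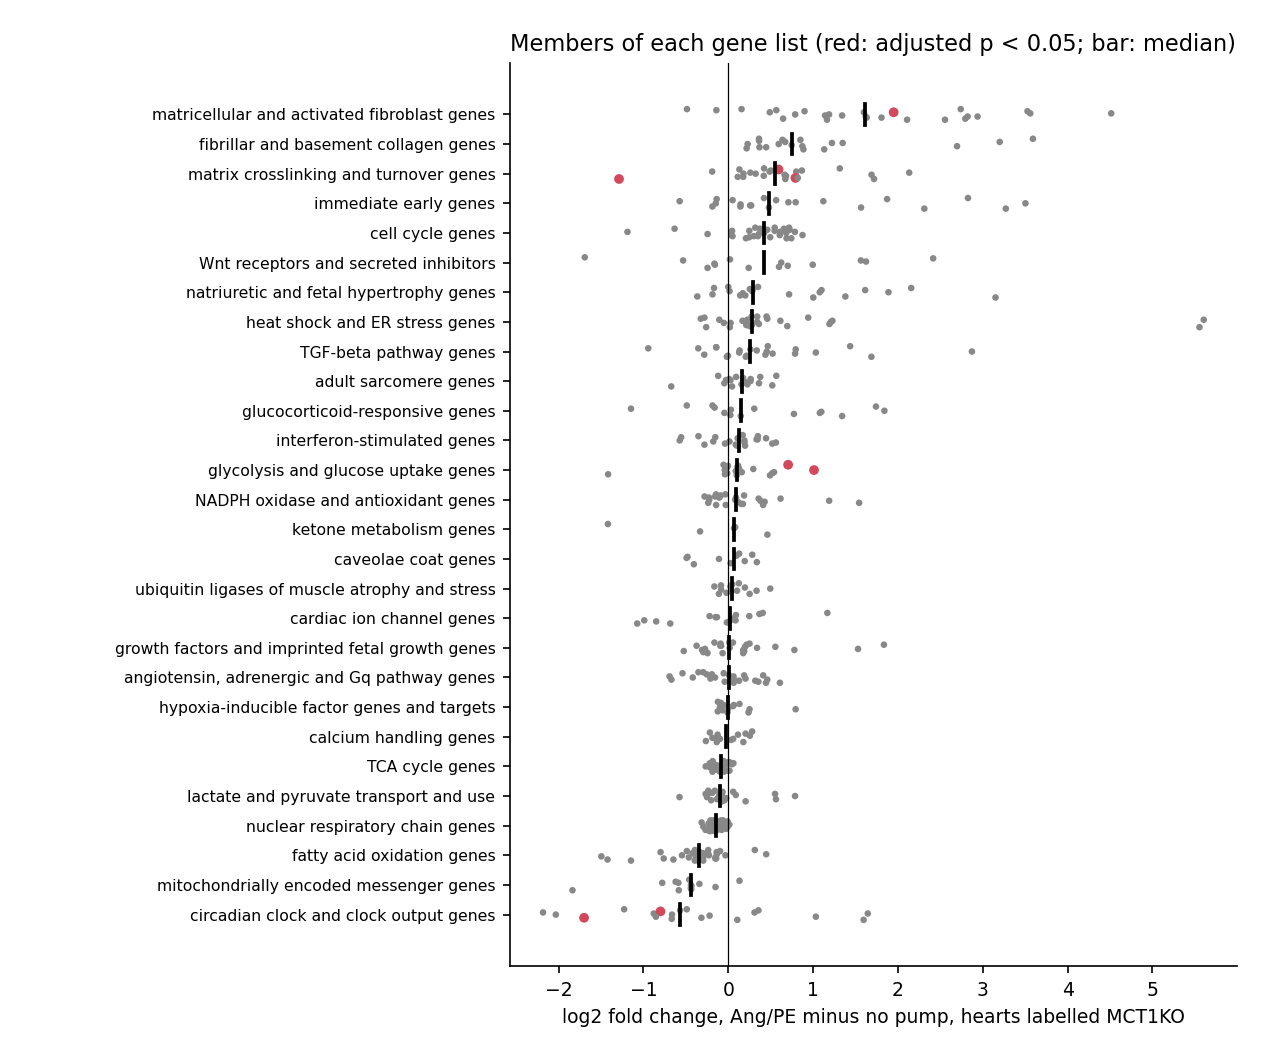
Log2 fold change with Ang/PE in hearts labelled MCT1KO for each tested member of 28 gene lists, ordered by the list's median (black bar), with called genes in red. Matricellular genes (median 1.61) and collagens (0.75) are at the top, clock genes (-0.57) and mitochondrially encoded genes (-0.44) at the bottom, and most lists lie near 0.

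Glycolysis gave 2 called genes of 22, both higher, where 0.159% of all genes tested were called higher. Pfkp, the platelet form of phosphofructokinase, was at 46.3, 41.1 and 59.6 CPM without a pump and 88.5, 120.1, 82.96, 85.9 and 116 CPM with Ang/PE. All Ang/PE hearts were above the no pump hearts, with a fitted log2 change of 1.01 (SE 0.17; edgeR adjusted p = 0.0161). Pgam1, phosphoglycerate mutase 1, was at 20.9, 17.7 and 18.3 CPM without a pump and 24.6, 39.6, 28.8, 28.3 and 33.2 CPM with Ang/PE, also without overlap, with a fitted log2 change of 0.71 (SE 0.13; edgeR adjusted p = 0.0251). The call of Pfkp was lost without no pump replicate 1 or 2 (edgeR adjusted p up to 0.122), and that of Pgam1 also without no pump replicate 3 or Ang/PE replicate 5 (up to 0.215). Hk1, hexokinase 1, and Eno1, enolase 1, had no overlap either, with log2 fold changes of 0.54 and 0.52 (edgeR adjusted p = 0.141 and 0.177). The median over the 22 was 0.10.

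Lactate and pyruvate handling, the study's subject, gave no call. None of the 25 tested genes was called and 1 had an unadjusted p below 0.05, against 0.341% and 13.1% of all genes tested. At so low a share called, a list of this size without a call is not set apart from other genes. The median log2 fold change was -0.10. Ldha and Ldhb, the lactate dehydrogenase chains, had log2 fold changes of 0.058 (SE 0.11) and -0.103 (SE 0.14). The mitochondrial pyruvate carrier chains Mpc1 and Mpc2 had -0.19 (SE 0.104) and -0.25 (SE 0.13), and the transporter Slc16a7 (MCT2) -0.12 (SE 0.16). Pdk4, which shuts pyruvate dehydrogenase, ranged from 198 to 769.5 CPM without a pump and from 243 to 676 CPM with Ang/PE, with a log2 fold change of -0.045 (SE 0.54). A related transporter gene outside the list, Slc16a6, rose, with 7.26 to 8.94 CPM without a pump and 13.1 to 16.3 CPM with Ang/PE (log2 fold change 0.899, SE 0.18, edgeR adjusted p = 0.0422).

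Most fatty acid oxidation genes had lower fitted values with Ang/PE, with no call. Of 34 tested, 18 had an unadjusted p below 0.05, all toward lower, against 6.52% of all genes tested, of which 0.341% were called. A negative log2 fold change was found in 32 of the 34, and their median was -0.34. Acaa2, the thiolase of mitochondrial beta-oxidation, was at 661, 759 and 524 CPM without a pump and 505, 270.3, 408, 434 and 295 CPM with Ang/PE. Ang/PE replicates 2 and 5 were the lowest and the groups did not overlap, with a fitted log2 change of -0.76 (SE 0.18; edgeR adjusted p = 0.0814). Acot1 and Acot2, near-identical acyl-CoA thioesterases between which reads can be split, had log2 fold changes of -1.496 and -0.798 (edgeR adjusted p = 0.117 and 0.104). Cpt1b, the carnitine transferase of muscle, had -0.15 (SE 0.15) and the regulator Ppargc1a 0.45 (SE 0.25).

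Messengers of the mitochondrial genome had a median log2 fold change of -0.44 over 13, and none was called. Of the 13, 10 had an unadjusted p below 0.05, all toward lower, against 6.52% of all genes tested. All mitochondrial genes, ribosomal RNA included, took 8.87 to 13.5% of the counts with Ang/PE and 12.8 to 18.2% without a pump, which overlap. mt-Atp6, which overlaps mt-Atp8, was at 136, 61.6 and 249 CPM without a pump and 58.5, 33.95, 37.2, 40.3 and 39.1 CPM with Ang/PE (log2 fold change -1.84, SE 0.43, edgeR adjusted p = 0.0963). The no pump hearts spread widely in this gene and all lay above the Ang/PE hearts. The 42 respiratory chain genes of the nucleus had a median of -0.14 and the 24 genes of the citric acid cycle -0.082, with 0 calls in each. By edgeR 1 of the former and 0 of the latter had an unadjusted p below 0.05, against 13.1% of all genes tested.

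Receptors and transducers of the agonists gave no call. Of 25 angiotensin, adrenergic and Gq pathway genes tested 4 had an unadjusted p below 0.05. Over all genes tested 13.1% had such a p and 0.341% were called. The median log2 fold change of the 25 was 0.011. Agtr1a, the AT1 receptor, was at 32.9, 45.5 and 29.2 CPM without a pump and 31.6, 26.00, 28.9, 30.4 and 23.6 CPM with Ang/PE, with overlap (log2 fold change -0.35, SE 0.198, edgeR adjusted p = 0.485). Adra1a, an alpha-1 adrenergic receptor, was at 62.3, 82.8 and 54.6 CPM without a pump and 53.7, 17.8, 61.2, 48.4 and 48.05 CPM with Ang/PE, where replicate 2 was low (log2 fold change -0.54, SE 0.301, edgeR adjusted p = 0.485).

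Stress and early response genes gave no call, against 0.341% of all genes tested. The heat shock gene Hspa1a was at 1.98, 1.03 and 1.72 CPM without a pump and 298, 67.6, 2.804, 2.63 and 7.96 CPM with Ang/PE, with replicates 1 and 2 far above the rest (log2 fold change 5.56, SE 2.32, edgeR adjusted p = 0.339); its near-identical copy Hspa1b can share its reads. The immediate early gene Atf3 was at 261, 82.2, 8.49, 7.39 and 8.67 CPM with Ang/PE, where the same hearts were high, and 4.06 to 11.7 CPM without a pump (log2 fold change 3.27, SE 1.75, edgeR adjusted p = 0.469). Of 27 heat shock and endoplasmic reticulum stress genes 12 had an unadjusted p below 0.05, all toward higher, against 6.59% of all genes tested. Of 21 immediate early genes 2 had such a p, against 13.1% in either direction. The medians of the lists were 0.28 and 0.48 in the same order. The median over the 27 heat shock genes, relative to the no pump mean, was 0.61, 0.31, 0.18, 0.22 and 0.203 in Ang/PE replicates 1 to 5 and -0.072 to 0.073 in the no pump hearts, without overlap.

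The remaining lists gave no call, against 0.341% of all genes tested. Their medians on the log2 scale were 0.42 for 29 cell cycle genes, 0.42 for 14 Wnt receptors and inhibitors, 0.15 for 15 glucocorticoid-responsive genes, 0.13 for 22 interferon-stimulated genes, 0.062 for 10 caveolae genes and -0.0034 for 14 hypoxia genes. They were 0.087 for 24 NADPH oxidase and antioxidant genes, 0.068 for 5 ketone genes, 0.041 for 14 ubiquitin ligases and 0.014 for 26 growth factor genes. Cavin2, which coats caveolae, was at 122 to 149 CPM without a pump and 77.01 to 115 CPM with Ang/PE (log2 fold change -0.49, SE 0.12, edgeR adjusted p = 0.0886). Cenpf, a centromere protein, was at 44.1 to 85.6 CPM without a pump and 16.3 to 39.3 CPM with Ang/PE (log2 fold change -1.19, SE 0.32, edgeR adjusted p = 0.135), whereas 26 of the 29 cell cycle genes had a positive value. Mki67, a marker of dividing cells, was at 5.15 to 7.33 and 6.59 to 16.98 CPM, with overlap (log2 fold change 0.74, SE 0.37, edgeR adjusted p = 0.415).

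The same comparison in WT hearts shares no heart with this one, though both come from 1 fit with a common estimate of spread. Of the 58 called genes, 56 had the same sign in WT hearts, 27 of 27 higher and 29 of 31 lower, against 58.89% of all genes tested. An unadjusted p below 0.05 in WT was reached by 23 of the 58, and by 1561 genes (9.19%) of all tested. Xist and depth moved with Ang/PE in WT hearts too: Xist was present in 3 of 3 Ang/PE and 2 of 4 no pump hearts, and the libraries held 15.2 and 20.5 M counts on average. Their part in the shared direction was not tested. Penk was at 4.298 to 12.7 CPM in WT hearts without a pump and 1.897 to 3.23 CPM in WT hearts with Ang/PE. The log2 fold change was -1.74 (SE 0.34), beside -2.12 in hearts labelled MCT1KO. Tgm2 had 0.22 (SE 0.12) in WT hearts beside 0.79, and Rcan1 1.62 (SE 0.54) beside 1.89. The exceptions in sign were Abcb1a, at 0.061 (SE 0.11) in WT hearts, and Per3. The difference between the genotypes was called for 0 genes by edgeR, with 907 genes (5.34%) at an unadjusted p below 0.05 and 5 genes called by DESeq2. The interaction of Abcb1a was -0.65 (SE 0.15), with an edgeR unadjusted p of 0.000352 and an adjusted p of 0.891.

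Saline hearts were left out of the comparison because some carry atrial and fat genes. In the 4 saline hearts labelled MCT1KO the atrial gene Myl4 was at 1.4996 to 1975 CPM and the fat gene Cfd at 0.875 to 379.6 CPM, and Xist was present in 3 of the 4. Their levels are given side by side, on a scaling over all 25 hearts, and the part of these differences in them was not tested. For 43 of the 58 called genes the saline mean was nearer to the no pump mean on the log2 scale, and for 15 nearer to the Ang/PE mean. Of the 43, 10 had a saline mean on the side of the no pump mean away from Ang/PE, and 4 of the 15 had one beyond the Ang/PE mean. Kcna2 was among the 10, at 4.19 to 17.3 CPM in the saline hearts and 6.36 CPM on average without a pump. Tgm2 had 231 CPM without a pump, 252 ± 25.7 CPM (SD, n = 4) with saline and 402 CPM with Ang/PE. Per3 had 77.7, 76.2 ± 17.8 and 23.9 CPM in the same order, and Nr1d2 161, 156 ± 20.9 and 92.5 CPM. In these genes the saline mean was nearer to the mean without a pump. Abcb1a had 34.4, 22.7 ± 1.97 and 23.01 CPM, Cecr2 52.4, 33.5 ± 4.84 and 30.6 CPM, and Pgam1 19.3, 29.8 ± 7.92 and 31.6 CPM. In these the saline mean was nearer to the Ang/PE mean. These genes were picked after their values were seen, and the differences from saline were not tested here.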

How the data were processed

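Total RNA of 25 mouse hearts was sequenced after depletion of ribosomal RNA with a directional library kit, per the labels' protocols. The authors deposited 1 table of raw read counts per gene with the gene's symbol. The submitters' processing notes name cutadapt 1.16, STAR 2.7.9a, featureCounts 1.6.3, DESeq2 1.42.1 and the build GRCm39 (mm39). The annotation release, the strand setting and the treatment of multiply mapped reads are not given in the sources used here, so reads of overlapping, antisense or near-identical genes can be split or shared between them.

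Rows without a symbol held 0.778% of the counts. Gene types came from a GENCODE mouse annotation and not from the deposited counts. Genes with low counts were removed with edgeR's filter, counts were scaled by TMM, and the 15 hearts without saline were fitted together by group with edgeR's robust quasi-likelihood model (edgeR 4.0.16, limma 3.58.1, R 4.3.3). The contrast was Ang/PE minus no pump in hearts labelled MCT1KO, and p-values were adjusted by Benjamini-Hochberg over all genes tested. They test the difference against a spread between hearts that was estimated from all 15 hearts in the fit, WT hearts included. Log2 values for plots and medians used CPM + 0.5. Tests were two-sided. The named genes are a panel, the 10 called genes of smallest p in each direction (with a symbol, no predicted or sex-linked gene, a mean log2 CPM above 1 and no overlap between groups), up to 4 of each pathway list by p and up to 4 of each marker list by level. Others were chosen after their values were seen. The members and lists were chosen with earlier results of these data known. Alternatives with DESeq2 1.42.0 and with a GC and length correction (mgcv 1.9.3), among others, are in the closing section.

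The fit was tested on simulated data with 16780 genes for this contrast, where 24 of 67 genes changed 1.5-fold, 55 of 67 changed 2-fold and 65 of 66 changed 4-fold were called. The simulated counts were drawn independently for each gene and heart, and only genes above a limit on the mean count were changed. Variation shared between the genes of a heart, differences in Xist and genes of low level were therefore left out of these shares. Same-numbered hearts labelled MCT1KO had correlations of 0.182, -0.227 and -0.0995 in their deviations from the group means, so the numbers were not taken as pairs. The hearts held 12.2 to 16.6 M counts with Ang/PE and 18.9 to 22.6 M without a pump. Promoter sequences were read from RefSeq tables on GRCm38.p6, matched by symbol.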

Additional observations from a re-analysis of the deposited data

Results flagged for a closer look

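The 5 Ang/PE hearts labelled MCT1KO were examined in 152 items, which were 150 genes, the library size and the mitochondrial share. In 9 of the genes, 1 heart stood far from the other 4 in log2(CPM + 0.5). The measure was its gap to the nearest heart over the whole range. Chance alone gives such a heart in about 1 in 20 groups. Replicate 2 was high in Egr2 (5.82, with the nearest heart at 2.75) and Egr3 (4.497, nearest 1.81), which are immediate early transcription factors. It was also high in the protease gene Adamts4 (2.72, nearest 2.11), the caveolar coat gene Cavin3 (4.502, nearest 4.07) and the antioxidant gene Gpx1 (5.94, nearest 5.20), and low in the adrenergic receptor gene Adra1a (4.20, nearest 5.60). Replicate 4 was high in the transporter gene Slc16a7 (4.39, nearest 3.88) and low in the quinone reductase gene Nqo1 (5.30, nearest 5.51). Replicate 5 was low in the pyruvate carrier gene Mpc1 (6.78, nearest 7.06).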

How the results depend on the processing

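The count of 58 genes called moved by more than 1.5 times under several settings. It was 434 with DESeq2, 151 without the filter on low counts, 89 with all 25 hearts in the fit, 22 with the 8 hearts alone and 0 with Xist as a covariate. With the replicate block, which joins hearts that share only a number, it was 13, and 14 with the replicate block and the GC and length correction. Leaving out 1 heart at a time gave 7 to 87 genes. The genotype interaction gave 0 genes with edgeR, 5 with DESeq2 and 0 to 1 without single hearts, and has no value from the 8 hearts alone or from hearts without Xist. Of the single genes named, these changed sign, all of them not called: with Xist as a covariate Ldha (-0.0148), Pdk4 (0.0603) and Cpt1b (0.0428); in hearts without Xist Myh6 (-0.29), Ldha (-0.18), Mypn (-0.0311), Oxct1 (-0.0528) and Bnip3l (0.0417); with the GC and length correction Myh6 (-0.0283); and with that correction and the replicate block Slc16a1 (0.00217). Without single hearts the log2 fold change ranged from -0.17 to 0.0438 for Bnip3l, -0.10 to 0.14 for Myh6, -0.42 to 0.44 for Pdk4 and -0.19 to 0.0053 for Slc16a1. The cause was not tested. Over the 150 named genes and all settings, 2907 values kept direction and side of the threshold, 66 newly passed it, 156 no longer passed it and 17 changed sign. At this depth and number of hearts, changes near 1.5-fold were mostly missed in the simulated data, which lack variation shared between the genes of a heart.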
